A study of Mus musculus with 38 samples.

Results

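Intestinal organoids without Ppara and with a targeted Ppard, grown with a PPARδ agonist, were compared with organoids in which only Ppard was targeted, under the same agonist. The first group (DA) had the genotype Ppard-fl/fl with Ppara-null and comprised 5 libraries. The second (D) had the genotype Ppard-fl/fl alone and comprised 3 libraries. All 8 were of C57BL6 mice and received 1 uM GW501516 (GW) in 0.1% DMSO during 8 days and 2 passages in 65% matrigel, so the agonist and the floxed Ppard alleles were common to both groups. They were 8 of the 38 samples of the series, of which 37 libraries in 8 groups entered the fit. The other groups used here were DA and D in vehicle (0.1% DMSO, 4 and 5 libraries), organoids with Ppara-null alone (A, 5 libraries under GW) and wild-type organoids (WT, 5 libraries under GW and 5 in vehicle). The 8 libraries were chosen by the treatment and genotype in the names of the count columns, and each is called here by the number that ends its column name.

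The labels set limits to these groups. They call the Ppard allele floxed and name no recombinase, and they do not say that libraries of a group came from separate animals or cultures, so p-values measure only the spread between these libraries. A further sample titled as D under GW carried the genotype label of DA. Its column could not be told from the names. In each of the 3 libraries used for D, Rep15 and AA465934, which pass between DA and D in vehicle, lay below every DA library under GW, with Rep15 at 342 to 492 CPM in DA and 101 to 148 CPM in D, and AA465934 at 58.2 to 116 CPM in DA and 2.14 to 8.71 CPM in D. Organoids with Ppara-null alone can also be low for both genes. The lowest A library under GW had 139.8 CPM of Rep15, and the lowest for AA465934 had 4.02 CPM. These values therefore do not check the labels of the D libraries. DA library 4 carried a suffix 2 in its column name that no label explains.

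PPARα and PPARδ are nuclear receptors that bind fatty acids and their derivatives and act as heterodimers with RXR at direct repeats of a hexamer with a single base between them. Both switch on genes for fatty acid uptake, mitochondrial and peroxisomal β-oxidation and lipid storage, and their target genes overlap widely in the intestine. GW501516 is a synthetic agonist with a strong preference for PPARδ. The comparison asks what loss of Ppara adds when Ppard is targeted and the agonist is present.

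Polyadenylated RNA was counted at transcript 3′ ends, at 354801 to 512122 counts per library in the 8 libraries, and 10051 to 10776 genes had a count. Levels are given as counts scaled to a library total of 1e+06 (CPM). Mitochondrial transcripts took 8.08% to 10.2% of the counts. In the 8 libraries the epithelial genes Krt8 and Epcam had 219 to 422 and 64 to 110 counts per library, while the immune genes Ptprc and Cd3e and the fibroblast gene Col1a1 had 0. Of 15 immune markers, 12 had no count in any of the 8 libraries, and the list summed to 2.07 to 7.81 CPM in DA libraries and 0 to 8.55 CPM in D libraries. Judged by Xist against Y-linked counts, 2 of 5 DA libraries and 2 of 3 D libraries had more Xist.

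The targeted genes were read first. Ppara (chr15:85734983-85802819, build mm10) had 4.17, 2.53, 4.14, 6.23 and 1.95 CPM in DA libraries 4, 15, 32, 44 and 56, against 28.3, 12.8 and 2.82 CPM in D libraries 14, 31 and 54. These rest on 1 to 3 counts per DA library and on 13, 6 and 1 counts in the D libraries. D library 54 lay inside the DA range, and the other D libraries lay above every DA library. The log2 fold change was -2.02 ± 0.62 (SE), which did not pass (adjusted p = 0.32 by the quasi-likelihood test of edgeR, with Benjamini-Hochberg adjustment over all genes tested). An exact two-sided permutation test over the 5 and 3 libraries gave p = 0.143, where 0.0357 is the smallest p that 56 regroupings allow. Without D library 14, which holds 13 of the 20 D counts, the log2 fold change of Ppara was -1.17 (adjusted p = 0.9985, edgeR). Without D library 54 it was -2.48, and within the libraries numbered 37 to 60, which hold only this D library, it was 0.50. At 1 count, Ppara does not check the label of D library 54.

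Ppard had 1 to 2 counts in each DA library and 0 to 1 in each D library, too few to compare, and the part of the transcript that the tags read need not lie in the floxed segment. Pparg, the third receptor of the family, averaged 28.1 ± 9.11 CPM in DA libraries and 22.6 ± 0.879 CPM in D libraries (SD, n = 5 and 3), a log2 fold change of 0.24 ± 0.34 (SE) that did not pass.

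Across all genes the comparison was sparse. Of 4902 genes tested, 2 were lower in DA than in D at an adjusted p under 0.05 and 0 were higher (0.0408% called, by edgeR). DESeq2 and limma-trend each called 4 genes, 2 higher and 2 lower. At an unadjusted p under 0.05 there were 164 lower and 146 higher genes (3.35% and 2.98%). Every DA library lay below every D library for 77 genes (1.57%) and above every D library for 115 genes (2.35%). The log2 fold change was below 0 for 49.7% of the genes, and its median was 0.00.

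**Figure D1:**
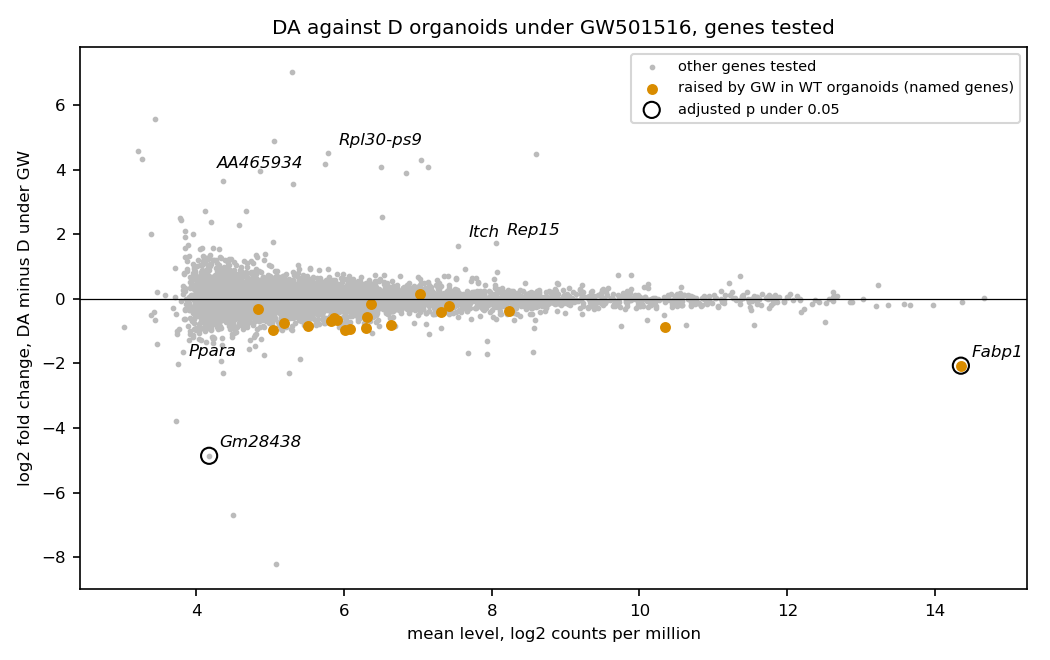
Each point is a gene, at its mean level over the libraries (log2 CPM, x axis) and its log2 fold change of DA minus D under GW (y axis); orange points are genes that GW raised in WT organoids and open circles are genes with an adjusted p under 0.05. Fabp1 stands alone at the high end of the levels with a log2 fold change of -2.07, and the orange points lie mostly below 0.

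The gene that fell at a high level was Fabp1, which encodes the liver-type fatty acid binding protein, a cytosolic carrier of long-chain fatty acids in enterocytes and hepatocytes and a known PPAR target. Fabp1 lies on chr6:71199827-71205023 (plus strand). It had 7949, 14642, 9623, 6155 and 5563 CPM in DA libraries 4, 15, 32, 44 and 56, against 45499, 38365 and 21443 CPM in D libraries 14, 31 and 54. The groups did not overlap, and D library 54 was the lowest of the D libraries. In shares of all counts Fabp1 took 0.556% to 1.46% in DA libraries and 2.14% to 4.55% in D libraries. Fabp1 fell to a mean of 8786 ± 3640 CPM in DA, against 35102 ± 12355 CPM in D (SD, n = 5 and 3), with a log2 fold change of -2.07 ± 0.32 (adjusted p = 0.000356 by edgeR), or 4.20-fold lower in DA. The exact permutation test gave p = 0.0357, the smallest it can give. Without D library 54 the log2 fold change was -2.36, and within libraries 37 to 60, which hold only this D library, it was -1.85.

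Fabp1 also differed between the genotypes without the agonist. In vehicle it averaged 9017 ± 2902 CPM in DA and 21964 ± 8213 CPM in D (SD, n = 4 and 5), a log2 fold change of -1.40 ± 0.31 that passed (adjusted p = 0.0276 by edgeR). The DA libraries in vehicle reached 12986 CPM at most, against a lowest D library of 13271 CPM. The DA means were 8786 CPM with GW and 9017 CPM in vehicle. The difference between the GW and the vehicle comparison was -0.67 ± 0.44 on the log2 scale and did not pass (adjusted p = 0.9997 by edgeR). For A against WT under GW the log2 fold change of Fabp1 was -0.76 ± 0.29, with 23035 ± 4263 CPM in A and 38433 ± 14240 CPM in WT (SD, n = 5 each), and did not pass (adjusted p = 0.694, edgeR).

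The sequence around the Fabp1 start is shown because PPAR:RXR heterodimers bind a direct repeat spaced by 1 base and Fabp1 is the coding gene that passed. The window runs from 250 bases before to 50 bases after the start in RefSeq (GRCm38.p6, chr6:71199629-71199928, plus strand), 5′ to 3′. Capitals mark a match, on the minus strand, to a direct repeat of AGGNCA with any 1 base between the repeats, which starts 67 bases before the transcription start.
Fabp1: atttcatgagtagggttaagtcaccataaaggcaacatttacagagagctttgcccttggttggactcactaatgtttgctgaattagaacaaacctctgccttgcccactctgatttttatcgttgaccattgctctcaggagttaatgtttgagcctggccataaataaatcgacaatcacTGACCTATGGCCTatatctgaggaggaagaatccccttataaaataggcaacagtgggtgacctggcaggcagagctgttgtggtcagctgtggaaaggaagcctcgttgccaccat
The motif was searched on both strands. It occurred in 1 of 18 GW-raised genes with an entry (5.56%), which was Fabp1, in 0.369% of the 3789 tested genes with an entry and in 0.451% of all 27025 entries. A match of letters is a description of the window, not a measured binding site.

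**Figure D2:**
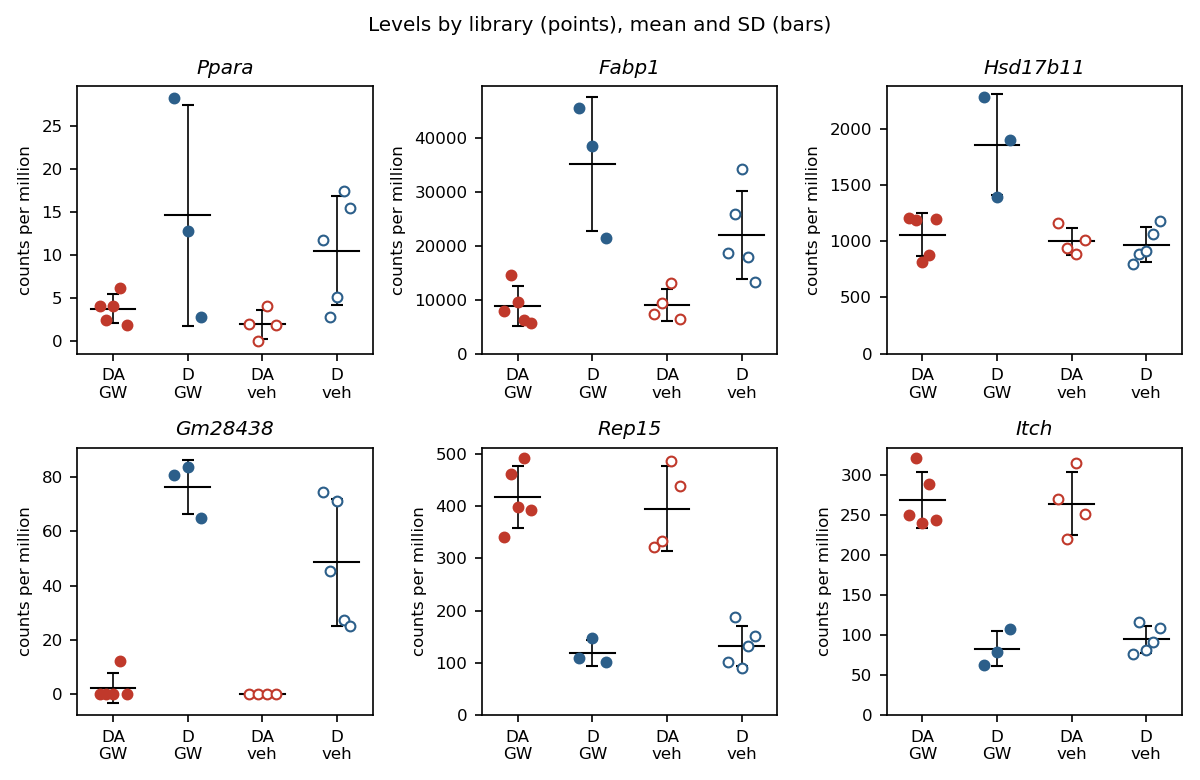
CPM of 6 genes (y axis, linear) in DA and D libraries under GW (filled points) and in vehicle (open points), with the mean as a line and the SD as a bar. Fabp1, Gm28438, Rep15, Itch and Hsd17b11 do not overlap between DA and D under GW, Ppara does through 1 D library, and Hsd17b11 overlaps in vehicle.

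The other gene that passed was Gm28438, annotated as an unprocessed pseudogene on chr1:24612775-24613119 (minus strand). It had 0, 0, 0, 12.5 and 0 CPM in DA libraries 4, 15, 32, 44 and 56, against 80.5, 83.4 and 64.8 CPM in D libraries 14, 31 and 54. DA library 44 alone held its 6 DA counts, and the D libraries held 99. The fitted log2 fold change was -4.86 ± 0.67 (adjusted p = 0.000356 by edgeR). Without DA library 44, the DA libraries held 0 counts and the fitted value was -8.25, which then depends on the prior count (adjusted p = 4.83e-05 by edgeR). Gm28438 was not called by DESeq2 (adjusted p = 0.545). Within libraries 37 to 60, which hold only D library 54, its fitted log2 fold change was -3.34. The D organoids were also the ones that held it in vehicle, with 122 counts over 5 libraries against 0 over 4 DA libraries. In A and WT libraries it had 0 and 4 counts under GW, over 5 libraries each. Its sequence is 99.7% identical over 345 bases to the mitochondrial gene mt-Nd3, so reads could be split between the copies and the level of Gm28438 is uncertain. mt-Nd3 itself averaged 394 CPM in DA and 497 CPM in D, a log2 fold change of -0.42 ± 0.34 that did not pass.

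Genes that GW raises were then read in the comparison. GW raised 20 genes in WT organoids against vehicle (0.408% called, by edgeR), and the 19 described here were chosen in libraries that are not among the 8. Of the 19, 18 had a log2 fold change below 0 in DA against D under GW, beside 49.7% of all genes, with a median of -0.69. Every DA library lay below every D library for 7 of the 19, beside 1.57% of all genes, and for none did every DA library lie above. Those 7 were Fabp1, Hsd17b11, Eci2, Abhd6, Crot, Slc25a20 and Aldh3a2. Fabp1 was the 1 of the 19 that passed, while 14 lay below 0 with an unadjusted p under 0.05, beside 3.35% of all genes. Leaving out any 1 of the 8 libraries kept the number of the 20 GW-raised genes below 0 at 19 and the median of the 20 between -0.79 and -0.59.

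Hsd17b11, a lipid-droplet-associated short-chain dehydrogenase, came closest after Fabp1. It had 1205, 1189.8, 819, 876 and 1197 CPM in DA libraries 4, 15, 32, 44 and 56, against 2286, 1392 and 1899.7 CPM in D libraries 14, 31 and 54. The highest DA library lay under the lowest D library. The log2 fold change was -0.88 ± 0.20 (adjusted p = 0.0795 by edgeR), which misses the threshold. With a block for the library number range Hsd17b11 passed (adjusted p = 0.0355, edgeR), as it did with a block by Xist against Y-linked counts (adjusted p = 0.0413, edgeR). Among the 8 libraries these blocks differ only for library 4, so they are nearly the same fit. Hsd17b11 did not pass with DESeq2 (adjusted p = 0.0524), limma-trend (adjusted p = 0.0933) or edgeR within libraries 1 to 36 (adjusted p = 0.3945). In vehicle the groups overlapped at 999 ± 119 CPM in DA and 969 ± 154 CPM in D (SD, n = 4 and 5), with a log2 fold change of -0.03 ± 0.19.

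Enzymes of fatty acid oxidation among the GW-raised genes gave values on the same side. Eci2, which isomerises unsaturated acyl-CoA in peroxisomes and mitochondria, had 77.1, 78.5, 70.3, 56.1 and 84.0 CPM in DA libraries, against 126, 120 and 116 CPM in D libraries, a log2 fold change of -0.80 ± 0.20. Crot, the peroxisomal carnitine octanoyltransferase, had 47.9, 43.0, 39.3, 31.2 and 37.1 CPM in DA libraries, against 67.5, 87.7 and 64.8 CPM in D libraries, a log2 fold change of -0.97 ± 0.24. The groups stood apart for both genes, and neither passed (adjusted p = 0.128 for each, edgeR). Slc25a20, the mitochondrial carnitine-acylcarnitine carrier, had 16.7 to 49.8 CPM in DA and 57.7 to 73.3 CPM in D, a log2 fold change of -0.85 ± 0.31. Aldh3a2, the fatty aldehyde dehydrogenase, had 22.7 to 33.2 CPM in DA and 36.4 to 47.9 CPM in D, at -0.75 ± 0.28. Abcd3, a peroxisomal fatty acid transporter, Hadhb and Hadha, the subunits of the mitochondrial trifunctional protein, and Acadl, the long-chain acyl-CoA dehydrogenase, had log2 fold changes of -0.56 ± 0.21, -0.42 ± 0.15, -0.23 ± 0.21 and -0.16 ± 0.25, with overlapping libraries for each.

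Genes of lipid storage, lipolysis and signalling among the GW-raised set had similar values. Abhd6, a monoacylglycerol lipase, had 62.5, 55.7, 39.3, 58.1 and 46.9 CPM in DA libraries, against 111, 87.7 and 76.1 CPM in D libraries. The groups did not overlap, and the log2 fold change was -0.89 ± 0.22 (adjusted p = 0.128, edgeR). Retsat, the retinol saturase, lay at -0.93 ± 0.28, and D library 31 with 51.3 CPM fell within the DA range of 39.1 to 60.8 CPM. Acot1, a cytosolic acyl-CoA thioesterase, had 10.3 to 25.4 CPM in DA and 21.4 to 47.9 CPM in D, at -0.98 ± 0.37. Angptl4, a secreted inhibitor of lipoprotein lipase, had 35.3 to 66.4 CPM in DA and 53.5 to 111 CPM in D, at -0.66 ± 0.26. Creb3l3, a transcription factor of lipid metabolism, and Plin2, a lipid droplet coat protein, had log2 fold changes of -0.69 ± 0.33 and -0.60 ± 0.32. Akr1b8, an aldo-keto reductase, and Me1, the cytosolic malic enzyme, had -0.39 ± 0.19 and -0.30 ± 0.46. Reg4, a secreted lectin, was the 1 gene above 0, at 0.16 ± 0.34. DA and D libraries overlapped for each of these genes other than Abhd6.

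In D library 31 several of these genes were low beside the other D libraries. Acot1 had 21.4 CPM in D library 31, against 47.9 and 45.1 CPM in D libraries 14 and 54, and Creb3l3 had 40.6 CPM against 100 and 76.1 CPM. Fabp1 and Crot were not low there. Leaving out D library 31 gave 4 genes that pass in DA against D, all lower, of which 2 were the genes above.

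In vehicle the same 19 genes lay on both sides of 0. There 11 of 19 had a log2 fold change below 0, beside 2539 of all 4902 genes tested. The median was -0.03, while over all genes tested the vehicle median was -0.01. Abhd6 had -0.89 ± 0.22 under GW and 0.06 ± 0.21 in vehicle, Angptl4 -0.66 ± 0.26 and 0.35 ± 0.25, and Acot1 -0.98 ± 0.37 and 0.69 ± 0.35. The difference between the treatments itself lay below 0 for 18 of the 19, beside 2439 of all 4902 genes. Its median was -0.52 for the 19, beside 0.0018 over all genes. No gene passed the test of that difference over all 4902 genes (0% called, lowest adjusted p = 0.728 by edgeR), while 135 had an unadjusted p under 0.05 (2.75%) and DESeq2 called 1. In A against WT under GW, 18 of the 19 were below 0, with a median of -0.35, but those WT libraries are the ones in which the 19 genes were chosen as high. No gene passed the test of the difference between the Ppard-targeted and the Ppard wild-type background under GW either (0% called, 165 genes or 3.37% at an unadjusted p under 0.05, 0 by DESeq2).

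**Figure D3:**
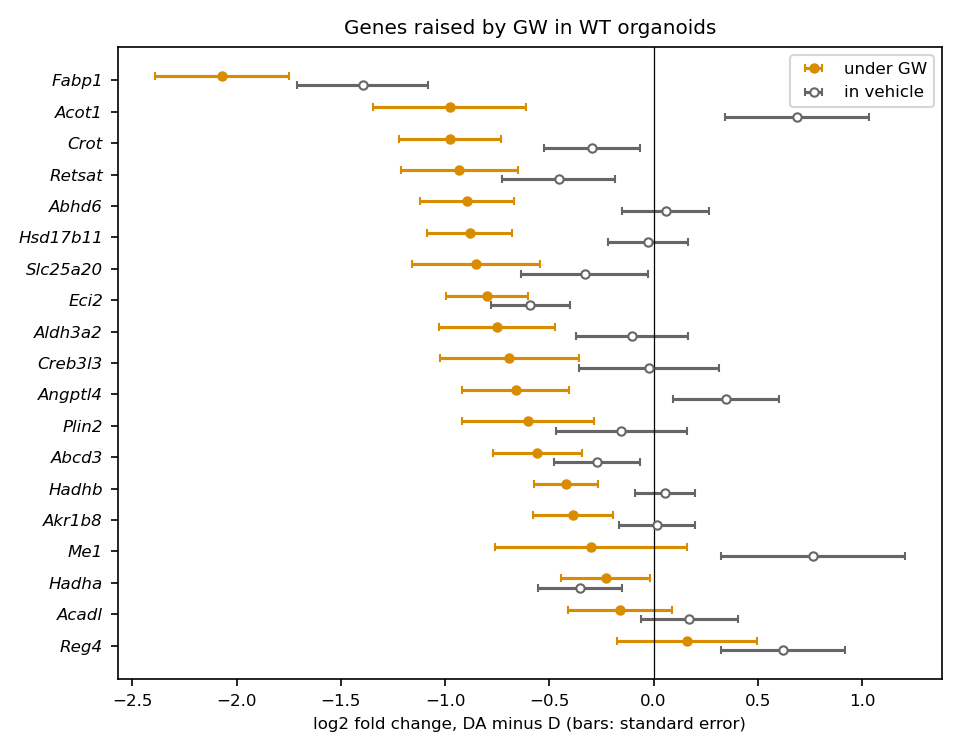
Log2 fold change of DA minus D (x axis) for the 19 genes that GW raised in WT organoids (rows), under GW (filled, orange) and in vehicle (open, grey), with the standard error as bars. Under GW 18 of 19 lie below 0 and in vehicle 11 of 19 do.

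Further PPAR target genes were read whatever their p-value. Cpt1a, the gatekeeper of mitochondrial fatty acid import, had 14.5 to 35.1 CPM in DA and 17.1 to 34.8 CPM in D, a log2 fold change of -0.12 ± 0.33. Acadvl, the very-long-chain acyl-CoA dehydrogenase, Acaa2, the mitochondrial 3-ketoacyl-CoA thiolase, and Pxmp4, a peroxisomal membrane protein, had -0.43 ± 0.25, -0.46 ± 0.19 and -0.64 ± 0.37. None of the 4 passed. Pdk4, a kinase that restrains pyruvate oxidation and a classical PPAR target, had 0 counts over the DA libraries and 2 over the D libraries, too few to test.

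Gene lists were described by counts and medians. Of 20 tested members of mitochondrial fatty acid oxidation (25 listed), 18 lay below 0 and 2 above, with a median log2 fold change of -0.21 and 0 passing. Of 18 tested members of peroxisomal fatty acid metabolism (29 listed), 17 lay below 0, with a median of -0.36 and 0 passing. Hsd17b4, the peroxisomal multifunctional enzyme, had -0.70 ± 0.27 and Ech1, a dienoyl-CoA isomerase, -0.28 ± 0.14. Of 14 tested PPAR targets outside oxidation (23 listed), 13 lay below 0 with a median of -0.68, and Hsdl2, a peroxisomal dehydrogenase-like protein, had 12.5 to 17.6 CPM in DA and 19.2 to 47.9 CPM in D (-1.18 ± 0.40). These lists share members with the GW-raised genes, so they are no separate evidence. Of 7 tested acyl-CoA thioesterases and synthetases (23 listed), 5 lay below 0 and 2 above, with a median of -0.07, and of 10 tested genes of lipid droplets and triglyceride turnover (25 listed), 6 lay below 0 and 4 above, also with a median of -0.07. Fatty acid synthesis had 7 of 11 tested members (17 listed) below 0 and a median of -0.20. None of the members of these 3 lists passed. In vehicle 14 of the 20 mitochondrial and 13 of the 18 peroxisomal genes were below 0.

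Fatty acid binding and the secretion of lipid gave further low values. Of 5 tested members of fatty acid uptake and binding (13 listed), 4 lay below 0 and Fabp1 passed. Fabp2, the intestinal fatty acid binding protein, had 2330.0, 2359, 2161, 2382 and 1909.7 CPM in DA libraries 4, 15, 32, 44 and 56, against 3254, 4259.5 and 3630.2 CPM in D libraries 14, 31 and 54. The groups did not overlap, with a log2 fold change of -0.81 ± 0.22 (adjusted p = 0.176, edgeR), while in vehicle it was -0.13 ± 0.20. Dbi, the acyl-CoA binding protein, had -0.42 ± 0.20 and Fabp5, the epidermal fatty acid binding protein, 0.46 ± 0.31. Of 12 tested genes of chylomicron assembly and apolipoproteins (14 listed), 10 lay below 0 with a median of -0.40 and 0 passing. Apoc2, the activator of lipoprotein lipase, had 210 to 339 CPM in DA and 433 to 637 CPM in D (-0.90 ± 0.26). Apob, the structural protein of chylomicrons, had 43.0 to 59.96 CPM in DA and 62.0 to 97.9 CPM in D (-0.71 ± 0.30), and Apoa4, an apolipoprotein of chylomicrons, had 59.96 to 163 CPM in DA and 100.5 to 259 CPM in D (-0.92 ± 0.34). The libraries overlapped for Apoa4 and not for Apoc2 or Apob.

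Markers of enterocytes, the absorptive cells that carry most of these genes, were read beside them. Of 26 tested enterocyte markers (30 listed), 21 lay below 0 with a median of -0.27, and of the 22 outside the lipid lists 17 lay below 0 with a median of -0.23. In vehicle 16 of these 22 lay below 0 with a median of -0.17. In A against WT under GW 11 of the 22 did, with a median of 0.008. Fabp1 was the 1 of the 26 markers that passed in DA against D under GW. Rbp2, the enterocyte retinol binding protein, had 68.3 to 122 CPM in DA and 144 to 169 CPM in D (-0.77 ± 0.26), and Reg1, a secreted lectin, had 223, 137, 323, 58.1 and 293 CPM in DA libraries, against 346, 455 and 1108 CPM in D libraries (-1.63 ± 0.43). Neither passed, and neither overlapped between the groups. The summed level of the 30 markers was 14210 to 23670 CPM in DA and 34620 to 57150 CPM in D, of which Fabp1 alone made up 5563 to 14642 CPM in DA and 21443 to 45499 CPM in D. In bulk organoids fewer enterocytes and less RNA of these genes per enterocyte cannot be told apart, and the part of cell composition in the results above was not tested. In raw counts, not scaled to the library total, the brush border gene Alpi had 71 to 115 per DA library and 62 to 124 per D library. Sis, also of the brush border, had 41 to 69 raw counts per DA library and 30 to 103 per D library. Library totals differed, so the overlap of these raw counts does not show that either gene was unchanged. Alpi and Sis do not stand for the 22 markers outside the lipid lists, of which 17 lay below 0.

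Markers of the other epithelial lineages were read in the same way. Of 16 tested Paneth cell markers 13 lay below 0 with a median of -0.09, of 9 goblet cell markers 8 with a median of -0.21, of 10 stem cell markers 8 with a median of -0.12, and of 8 enteroendocrine markers 5 with a median of -0.29. None of these passed. Ang4, an antimicrobial ribonuclease of Paneth cells, had 208, 78.5, 118, 78.9 and 76.2 CPM in DA libraries 4, 15, 32, 44 and 56, against 350, 357 and 333 CPM in D libraries. All D libraries lay above all DA libraries, at a log2 fold change of -1.71 ± 0.48 (adjusted p = 0.195, edgeR). Its relative Ang, an angiogenin ribonuclease, lay at -1.47 ± 0.36 (adjusted p = 0.128, edgeR), and at -1.94 without DA library 32, where it passed (adjusted p = 0.00961, edgeR). The 2 genes are close paralogs, and reads could be split between them. The stem cell marker Olfm4 had 24.9 to 62.5 CPM in DA and 36.4 to 60.9 CPM in D (-0.18 ± 0.35). Lgr5 had 0 to 7.59 CPM in DA and 2.14 to 13.1 CPM in D, on 9 counts over 5 DA and 9 over 3 D libraries. The hormone genes Gip and Cck had -0.63 ± 0.30 and -0.81 ± 0.48. Summed Paneth markers ran from 10530 to 17210 CPM in DA and 12660 to 14710 CPM in D, summed goblet markers from 3747 to 6610 CPM in DA and 4433 to 5531 CPM in D, and tuft markers had 15 counts in all.

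Genes of regenerative epithelium lay mostly above 0. Of the 13 tested members (23 listed) 12 lay above 0, beside 50.3% of all genes, with a median of 0.44 and 0 passing. Ly6e and Ly6a, surface proteins of the Ly6 family whose genes lie on chromosome 15, as Ppara does, had 0.71 ± 0.30 and 0.64 ± 0.43. Anxa2, a calcium-dependent membrane binding protein, had 1276 to 2249 CPM in DA and 1099 to 1559 CPM in D (0.37 ± 0.17), and S100a6, a calcium binding protein, had 2589.7 to 3557 CPM in DA and 1669.5 to 2429 CPM in D (0.48 ± 0.26). In vehicle all 13 lay above 0 with a median of 0.54. The summed level of the list was 5227 to 7644 CPM in DA and 3781 to 5296 CPM in D, which overlap.

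Pathways outside fatty acid handling varied in their medians. Of 75 nuclear genes of oxidative phosphorylation 69 lay below 0, at a median of -0.13 with 0 passing, and in vehicle 66 lay below 0. Ndufv2, Ndufa12 and Ndufa8, subunits of complex I, had -0.36 ± 0.12, -0.48 ± 0.18 and -0.58 ± 0.23. Of 45 tested enzymes of aldehyde and xenobiotic metabolism 42 lay below 0 with a median of -0.23, among them Adh1, an alcohol dehydrogenase, with 424 to 820 CPM in DA and 855 to 1223 CPM in D (-0.84 ± 0.25), and Cyp2c66, a cytochrome P450, at -0.46 ± 0.20. Of 75 cytosolic ribosomal proteins 43 lay above 0 and 32 below, with a median of 0.01. Cholesterol synthesis had 14 of 24 above 0 (median 0.04) and proliferation 18 of 30 (median 0.04), with Mcm7, a replicative helicase subunit, at 0.59 ± 0.28 and Top2a, a DNA topoisomerase, at 0.36 ± 0.20. In the oxidative stress list, 15 of 20 lay below 0, with Slc7a11, the cystine transporter, at -1.27 ± 0.49 and Txnrd1, thioredoxin reductase, at 0.57 ± 0.21. Hypoxia genes had 5 of 6 below 0 (median -0.25). None of these genes passed. In A against WT under GW 20 of the 75 oxidative phosphorylation genes lay below 0, with a median of 0.06. Of the 45 aldehyde and xenobiotic enzymes 21 lay below 0 there, with a median of 0.0095, and 29 did in DA against D in vehicle.

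**Figure D4:**
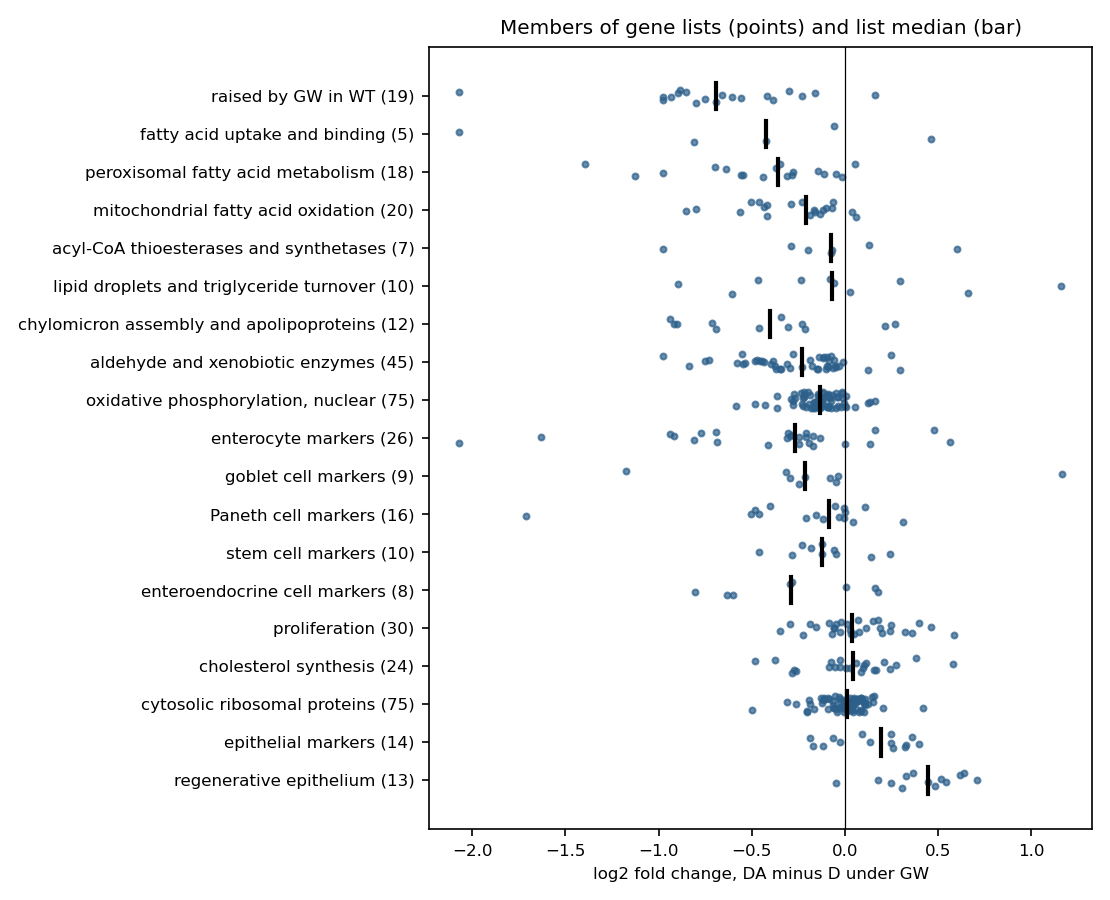
Log2 fold change of DA minus D under GW (x axis) for each tested member (points) of the gene lists (rows, number tested in brackets), with the list median as a bar. The 19 GW-raised genes have a median of -0.69, fatty acid uptake, oxidation and peroxisomal lists have medians from -0.42 to -0.21, the thioesterase and synthetase and the lipid droplet list both -0.07, and the regenerative list 0.44, while the median of the ribosomal proteins is 0.01.

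Genes higher in DA did not pass under GW but included some that passed in other libraries. Rep15 (chr6:147032584-147034245), which encodes a Rab15 effector, had 342, 461, 399, 492 and 392.5 CPM in DA libraries 4, 15, 32, 44 and 56, against 109, 148 and 101 CPM in D libraries 14, 31 and 54. Itch (chr2:155133509-155226855), an E3 ubiquitin ligase, had 250, 321, 240, 289 and 244 CPM in DA libraries, against 63.1, 79.1 and 107 CPM in D libraries. For both genes the groups lay far apart, with log2 fold changes of 1.72 ± 0.38 and 1.64 ± 0.37 (adjusted p = 0.0795 for each by edgeR). Rep15 and Itch passed here with DESeq2 (adjusted p = 0.00797 and 0.00972) and when only the 2 groups were fitted (adjusted p = 0.000372 for each, edgeR). They also passed with the library number block (adjusted p = 0.00828 for Rep15 and 0.0091 for Itch, edgeR).

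Both genes rose in the other comparisons of organoids with and without Ppara-null. In vehicle Rep15 averaged 395 ± 80.9 CPM in DA and 132 ± 38.8 CPM in D, and Itch 264 ± 39.3 CPM in DA and 94.7 ± 17.1 CPM in D (SD, n = 4 and 5). Their log2 fold changes in vehicle were 1.52 ± 0.33 and 1.42 ± 0.32 (adjusted p = 0.0244 and 0.0276, edgeR). In A against WT under GW they were 1.55 ± 0.32 and 1.68 ± 0.31 (adjusted p = 0.0126 and 0.00706, edgeR). There Rep15 overlapped, with 139.8 to 645.5 CPM in A and 82.83 to 180.1 CPM in WT. Itch did not overlap, with 118.0 to 538.6 CPM in A and 69.08 to 113.5 CPM in WT. D library 54, in which Ppara was low, had Rep15 and Itch at the level of the other D libraries. Between GW and vehicle these log2 fold changes differed by 0.20 ± 0.50 for Rep15 and 0.22 ± 0.49 for Itch, and neither difference passed.

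A group of pseudogenes and other transcripts with high fold changes shared this pattern, though not in every library. Rpl30-ps9, a processed pseudogene of Rpl30, had 89.6, 60.8, 134.4, 60.2 and 144.5 CPM in DA libraries 4, 15, 32, 44 and 56, against 4.35, 6.41 and 0 CPM in D libraries 14, 31 and 54, a log2 fold change of 4.50 ± 1.05 (adjusted p = 0.0795, edgeR). AA465934, a processed transcript, had 75.0, 58.2, 105, 116 and 111 CPM in DA libraries, against 8.71, 2.14 and 2.82 CPM in D libraries, at 4.18 ± 1.0996 (adjusted p = 0.176, edgeR). No library of either gene crossed between the groups. Gm8420 and Rps15a-ps8, at 3.91 ± 1.05 and 4.31 ± 1.20, overlapped through a single DA library each, number 32 with 6.20 CPM for Gm8420 and number 56 with 1.95 CPM for Rps15a-ps8. These pseudogenes are 92.2% to 99.4% identical to Rps15a, Rpl15 and Rpl30, which had log2 fold changes of -0.19 ± 0.26, -0.09 ± 0.11 and -0.13 ± 0.23, so reads could be split and their levels are uncertain. Psca, a surface protein of the Ly6 family, had 7.59 to 70.3 CPM in DA and 0 to 4.28 CPM in D, on 81 and 3 counts, at 3.65 ± 1.01. With the library number block Rpl30-ps9, AA465934 and Rps15a-ps8 passed (adjusted p = 0.0091, 0.0346 and 0.0104, edgeR). In A libraries under GW, Rpl30-ps9 ran from 0 to 151.4 CPM and AA465934 from 4.02 to 161.3 CPM. Gm8420 ran there from 24.12 to 376.1 CPM and Rps15a-ps8 from 2.185 to 485.7 CPM. For each of these genes the lowest A library lay within the WT range under GW. Psca lies on chromosome 15, 11018 kb from Ppara, as do Ly6e at 10775 kb, Ly6a at 10737 kb and Lgals2 at 6879.5 kb.

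The comparisons in other libraries list these genes. In vehicle 15 genes passed between DA and D, 11 higher and 4 lower (0.306% called, 0.224% higher and 0.0816% lower, by edgeR). All 11 had a log2 fold change above 0 under GW, beside 50.3% of all genes, 9 of them with an unadjusted p under 0.05, beside 2.98% of all genes. All 4 lay below 0, beside 49.7% of all genes. The labels do not say that vehicle and GW libraries came from different animals or cultures. Gm8420 had 6.17 CPM in DA library 28 in vehicle and 6.20 CPM in DA library 32 under GW. The other DA libraries of both treatments had 162 to 350 CPM. The vehicle and GW comparisons therefore need not be independent. The 11 were Rep15, Itch, Rpl30-ps9, AA465934, Gm8420, Rps15a-ps8, Hddc3, Gm11942, Gm8885, Slbp and Slc17a5. The last pair had only 0.37 ± 0.23 and 0.39 ± 0.29 under GW, against 1.03 ± 0.20 and 1.06 ± 0.25 in vehicle. The 4 lower genes were Gm28438, Fabp1, Lgals2 and Iah1. Lgals2, a galectin of the gut epithelium, had 3155, 4957, 2992, 5139.8 and 3626 CPM in DA libraries 4, 15, 32, 44 and 56 under GW, against 6749.8, 5782 and 6218 CPM in D libraries, at -0.72 ± 0.19 (adjusted p = 0.176, and 0.0438 with the library number block, edgeR) with no overlap. Lgals2 also passed under GW without the low-count filter (adjusted p = 0.0301, edgeR). It did not pass with the block by Xist against Y-linked counts (adjusted p = 0.0886, edgeR), DESeq2 (adjusted p = 0.123) or limma-trend (adjusted p = 0.141). In vehicle Lgals2 fell by 0.79 ± 0.18 on the log2 scale, and Iah1, an ester hydrolase, had -0.75 ± 0.23 under GW and fell by 0.88 ± 0.20 in vehicle.

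In A against WT under GW 9 genes passed, all higher (0.184% called, edgeR). All 9 lay above 0 in DA against D under GW, beside 50.3% of all genes, 8 of them with an unadjusted p under 0.05, beside 2.98% of all genes. Ccdc62, a coiled-coil protein, had 1.03 ± 0.21 in A against WT and 0.74 ± 0.25 in DA against D. Gm6278, a pseudogene 92.8% identical to Rplp0, had 128 counts over 5 DA libraries and 4 counts over 3 D libraries, and 102 of the 128 came from DA library 15. Over 5 A and 5 WT libraries under GW it had 1067 and 31 counts.

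**Figure D5:**
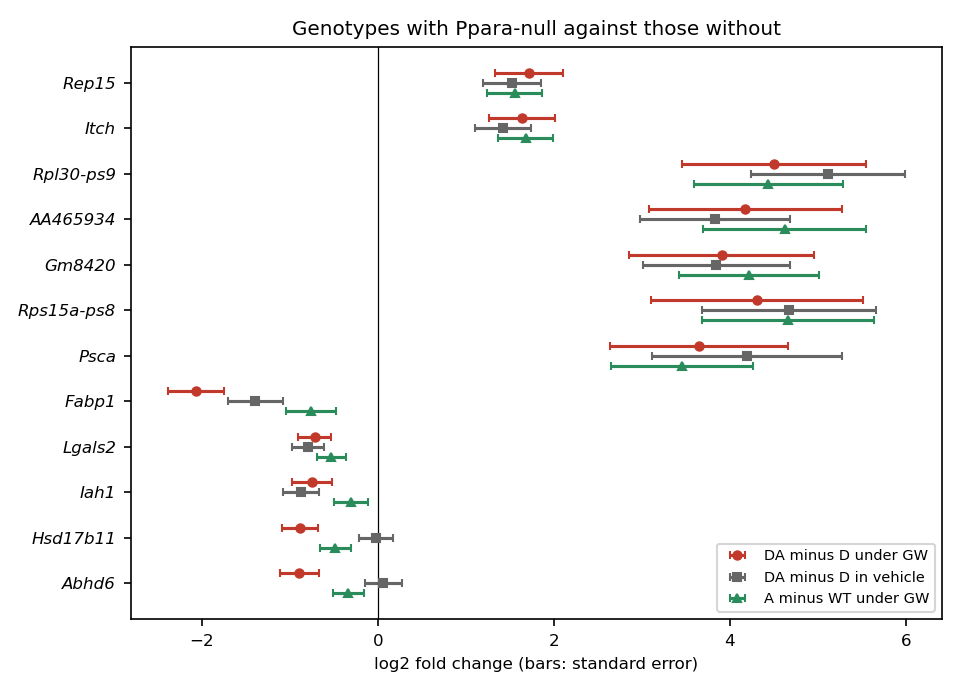
Log2 fold change (x axis, standard error as bars) of 12 genes (rows) in DA minus D under GW (circles), DA minus D in vehicle (squares) and A minus WT under GW (triangles). No library is shared between these comparisons, but the labels do not say that the animals or cultures differ. Rep15, Itch, the pseudogenes, AA465934 and Psca lie above 0 in all comparisons, and Hsd17b11 and Abhd6 lie below 0 under GW and near 0 in vehicle.

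The remaining genes with the smallest p-values did not pass. Among those higher in DA, Tpm3, a tropomyosin, had 129 to 228 CPM in DA and 103 to 124 CPM in D (0.71 ± 0.19), and Srpk1, a splicing-factor kinase, had 124 to 203 CPM in DA and 84.9 to 121 CPM in D (0.60 ± 0.17). Neither overlapped between the groups, and in vehicle they had 0.13 ± 0.17 and -0.14 ± 0.15. Oxa1l, Mia2, Utp6, Zc3h13, Mpzl3 and Snx7 had log2 fold changes from 0.78 to 1.36. Among those lower in DA, Mgst1, a microsomal glutathione transferase, had 611 to 972 CPM in DA and 1037 to 1336 CPM in D (-0.64 ± 0.18), Pigc, an enzyme of GPI anchor synthesis, had -1.101 ± 0.30, and Slfn9, a Schlafen family gene, had -1.94 ± 0.50 with D library 31 at 6.41 CPM inside the DA range of 3.91 to 12.5 CPM. Without D library 31 Slfn9 was at -2.38 and passed (adjusted p = 0.0202, edgeR), as it did with the block by Xist against Y-linked counts (adjusted p = 0.0272, edgeR). Without D library 54, which had 53.6 CPM, Slfn9 was at -1.15 (adjusted p = 0.75, edgeR). Within libraries 1 to 36 it was at -0.87 (adjusted p = 0.9995, edgeR). Gpat4, a glycerol-3-phosphate acyltransferase of triglyceride synthesis, had 1.16 ± 0.39 with overlapping libraries.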

How the data were processed

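Polyadenylated RNA of intestinal organoids was profiled by 3′ digital gene expression. The tests used the deposited count table, which holds whole numbers for each Ensembl gene. The deposited log2 table was only checked, and back-transforms to a sum of 1e+06 per library. The submitters' processing notes name the tools Salmon 1.1.0, edgeR 3.26.8 and R 3.6.2 and the build mm10. Their roles, the annotation and the handling of molecular identifiers are not given in the sources used here. Of 57 columns 37 were used. The 20 not used were 19 with KD in the name and 1 D column under GW with a suffix 2.

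Genes were filtered with filterByExpr (4902 of 54352 kept), scaled with TMM and fitted over 8 groups with edgeR 4.0.16 (glmQLFit, glmQLFTest; R 4.3.3), and adjusted by Benjamini-Hochberg within each comparison. A gene passed at an adjusted p under 0.05. limma 3.58.1 (limma-trend), DESeq2 1.42.0, other scaling, no filter, blocks, ranges of library numbers and left-out libraries were alternatives. Permutation tests used log2(CPM + 1). In 13 pairs of libraries within the groups, counts differed beyond sampling noise (chi-square per degree of freedom 2.61 to 5.70), so none were copies.

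Genes, members and lists were chosen with earlier results of these data known. Genes named are the 3 receptors, passing genes, up to 12 with the smallest p per direction, a fixed list of GW targets, genes GW raises in WT, up to 4 per list, and genes passing in the other comparisons. Of 161 such genes 83 are named. Copies and positions were taken from the GENCODE annotation of mm10. Some genes and 1 list are counted in totals but not reported here. The depth of 354801 to 512122 counts limits what can be seen of genes near a few CPM, such as Ppara and Ppard.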

Additional observations from a re-analysis of the deposited data

Results flagged for a closer look

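Among the 83 genes named, 10 had 1 DA library under GW far from the other 4 (a gap of more than 0.71 of the group's range). Chance flags about 1 in 20 groups. Gm28438 had 12.5 CPM in library 44 and 0 in the others. Ang had 26.9 CPM in library 32, against 8.31 to 10.4 CPM in the others. Slfn9 had 12.5 CPM in library 4, against 3.91 to 6.23 CPM. Hddc3 had 0 CPM in library 32, against 50.8 to 64.4 CPM. Mpzl3 had 29.1 CPM in library 44, against 35.2 to 37.5 CPM. Ndufa8 had 48.1 CPM in library 15, against 78.9 to 89.8 CPM. Gm6278 had 258 CPM in library 15, against 4.14 to 24.9 CPM. Gip had 60.8 CPM in library 15, against 22.8 to 29.3 CPM. Ech1 had 160 CPM in library 44, against 221 to 230 CPM. Pxmp4 had 10.3 CPM in library 32, against 22.8 to 27.3 CPM.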

How the results depend on the processing

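Fabp1 was lower in DA than in D under GW in every alternative run, from -2.36 to -1.85 on the log2 scale. It passed in every run that held more than 1 D library. The 20 genes raised by GW in WT kept 18 or 19 members below 0 in each. The numbers of passing genes moved more, and these are given for DA against D under GW (2), in vehicle (15), the difference of GW and vehicle (0), A against WT under GW (9) and the difference between backgrounds (0). Under GW, where 0 were higher and 2 lower, several alternatives called genes in both directions. Without the low-count filter the numbers were 52 (25 higher and 27 lower), 70, 9, 58 and 10. DESeq2 gave 4 under GW (2 higher and 2 lower) and 1 for the difference of GW and vehicle, and limma-trend gave 4 under GW (likewise 2 and 2), 5 for A against WT and 1 for the difference between backgrounds. Fitting only the groups compared gave 7 under GW (4 higher and 3 lower) and 3 for A against WT. A block for the library number range gave 10 under GW (5 higher and 5 lower), and a block by Xist against Y-linked counts, chosen after seeing the data, gave 11 (6 higher and 5 lower). Within libraries 1 to 36 there were 9 under GW (7 higher and 2 lower), 19 for A against WT and 1 for the difference between backgrounds, and within 37 to 60 there were 12 (4 higher and 8 lower), 8 in vehicle, 2 for A against WT and 3 between backgrounds. Without the suffix 2 columns there were 5 under GW (3 higher and 2 lower), 6 in vehicle and 0 for A against WT. Leaving out 1 library gave 2 to 4 under GW, all lower, 3 to 13 in vehicle and 5 to 11 for A against WT, and 0 for both differences. The cause of these changes was not tested. Rep15 and Itch missed the threshold when any 1 library was left out (adjusted p from 0.07 and 0.0978 up to 0.42 and 0.434, edgeR). Direction turned for some genes that did not pass. Within libraries 37 to 60 the log2 fold changes were 0.50 for Ppara, -0.014 for Ly6e, -0.047 for Fabp5 and 0.16 for Acadl, and within 1 to 36 Me1 had 0.00496. Over the fits that left out 1 library, Acadl ran from -0.33 to 0.044, Olfm4 from -0.337 to 0.0021, Reg4 from -0.0185 to 0.58 and Cpt1a from -0.31 to 0.16. No paired analysis was possible because the columns carry no replicate number, and the blocks above use only the library number range or the Xist and Y-linked counts. Depth limits the values of genes with few counts per library, such as Ppara with 1 to 3 counts in DA and 1 to 13 in D.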
